A study of Homo sapiens with 14 samples.

Results

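The genes described here are the subunits of the oxidative phosphorylation complexes, from both genomes of the cell. They were chosen by symbol alone: every row of the count tables whose gene symbol begins with MT-, with NDUFA, NDUFB, NDUFC, NDUFS or NDUFV and a digit, with UQCR, with COX and a digit from 4 to 8, or with ATP5F, ATP5M or ATP5P, together with SDHA to SDHD. The rule gave 101 of the 19923 genes in the tables, 13 encoded in mitochondrial DNA and 88 in the nucleus. No expression value entered the rule, but the members were chosen with earlier results of these data known. CYC1, NDUFAB1 and ATP5IF1 also encode parts of the complexes or a direct inhibitor, but carry other symbols and were followed separately.

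All 14 libraries came from SK-N-BE2, an established human neuroblastoma line with amplified MYCN. Batch 1 held wild-type cells given water (H2O), 10 µM cobalt(II) chloride (CoCl2) or 50 µM CoCl2, with 2 libraries each. Batch 2 held untreated wild-type cells (WT) and 3 TET2 knockouts numbered in the labels (TET2KO 1, TET2KO 2 and TET2KO 3), also with 2 libraries each. All were grown in RPMI1640 with serum, and RNA was taken into oligo-dT libraries, which capture polyadenylated RNA. How long cobalt was given, how the knockouts were made and whether each is 1 clone are not given in the sources used here, and nothing says that the 2 libraries of a group came from separate cultures, so the p-values measure the spread between libraries, which may be technical.

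Counts per library totalled 31214128 to 39540111 in batch 1 and 52095024 to 59263320 in batch 2. Batch 1 was counted with an older program version than batch 2. Of counts from 1 to 10, 77.3% to 80.5% were even numbers in batch 2 and 39.0% to 42.3% in batch 1, as when both reads of a pair are counted. Treatment and knockout groups lie in different batches, so levels are compared only within a batch. MYCN, which marks this line, lay between 2815 and 5577 CPM (counts scaled to library size) in all 14 libraries. TET2 mRNA was not lower in the libraries labelled TET2KO: its level was 70.8 and 64.8 CPM in WT, 80.4 and 76.6 in TET2KO 1, 87.4 and 91.1 in TET2KO 2, and 68.2 and 75.4 in TET2KO 3. A count over a whole gene does not check a small deletion or a frameshift.

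Oxidative phosphorylation moves electrons from NADH and succinate to oxygen through complexes I to IV in the inner mitochondrial membrane and uses the proton gradient so formed to make ATP in ATP synthase (complex V). Complex I oxidises NADH, complex II (succinate dehydrogenase) also serves the citric acid cycle, complex III passes electrons to cytochrome c, and complex IV (cytochrome c oxidase) reduces oxygen. Mitochondrial DNA encodes hydrophobic core subunits of complexes I, III, IV and V, transcribed as long polycistronic RNAs by the mitochondrial polymerase POLRMT with TFAM, and everything else, complex II included, is encoded in the nucleus. CoCl2 is a widely used mimic of hypoxia that stabilises hypoxia-inducible factor (HIF), and TET2 oxidises 5-methylcytosine in DNA. HIF is known to exchange some complex IV subunits, raising COX4I2 over COX4I1, and to induce NDUFA4L2, a relative of the complex IV subunit NDUFA4.

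Because the NDUFA4 pair separates most clearly under cobalt, the promoters of its genes are shown, from 250 bases before to 50 after the first start listed by RefSeq (GRCh38.p14), 5′ to 3′ on the gene's strand. NDUFA4L2 (RefSeq symbol COXFA4L2) reads from chr12:57240713-57241012, minus strand, and NDUFA4 (COXFA4) from chr7:10940104-10940403, minus strand. Capitals mark GCGTG, 1 of the 2 forms (ACGTG and GCGTG) of the core that HIF binds, searched on both strands.

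NDUFA4L2: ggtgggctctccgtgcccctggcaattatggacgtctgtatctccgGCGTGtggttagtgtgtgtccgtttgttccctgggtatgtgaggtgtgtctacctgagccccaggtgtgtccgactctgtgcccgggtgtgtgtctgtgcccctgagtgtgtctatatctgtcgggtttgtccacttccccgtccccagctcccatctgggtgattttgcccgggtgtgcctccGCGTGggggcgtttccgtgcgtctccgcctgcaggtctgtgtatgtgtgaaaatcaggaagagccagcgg

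NDUFA4: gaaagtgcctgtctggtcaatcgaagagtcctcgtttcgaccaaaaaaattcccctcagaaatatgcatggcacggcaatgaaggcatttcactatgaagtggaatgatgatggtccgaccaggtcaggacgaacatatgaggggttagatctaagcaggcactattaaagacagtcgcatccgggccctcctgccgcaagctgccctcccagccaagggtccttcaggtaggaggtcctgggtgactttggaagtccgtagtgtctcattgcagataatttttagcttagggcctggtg

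The NDUFA4L2 window held 2 matches, both GCGTG, and the NDUFA4 window held 0. A match describes letters only: ACGTG or GCGTG was found in 43 of the 71 member promoters in the table (60.56%), 48.39% of all 27305 promoters and 55.94% of the 15843 of protein-coding genes. Next, 2 motifs of factors known for nuclear mitochondrial genes were searched in the same way. The palindromic NRF1 site (its name stands here for the letters) was in 17 of 71 member promoters (23.94%), against 6.285% of all and 8.578% of protein-coding ones. CCGGAAG, an ETS-type site of the kind bound by GABPA, was in 20 of 71 (28.17%), against 10.67% and 14.23%.

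In mitochondrial DNA, MT-ATP8 (chrM:8366-8572) and MT-ATP6 (chrM:8527-9207) overlap. Their 46 shared bases (chrM:8527-8572, plus strand, GENCODE transcripts on GRCh38) are shown because a read lying there belongs to both genes and can be assigned to neither, which bears most on the short MT-ATP8; capitals mark the start codon of MT-ATP6 and the stop codon of MT-ATP8.

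MT-ATP8 and MT-ATP6: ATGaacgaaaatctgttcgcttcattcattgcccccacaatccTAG

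The 13 MT- genes were at 0 in all 6 batch 1 libraries and present in all 8 batch 2 libraries. Genes that every respiring cell uses being at 0 together, with the nuclear subunits present, means only that the batch 1 tables list them at 0, and cobalt cannot be examined for them. In WT their level per length, in CPM per kilobase, ran from 493.5 for MT-ND6, the member read from the other strand, to 5400 for MT-CO2, with a median of 1751. The 88 nuclear members had a median of 28.26 CPM per kilobase in WT and 31.59 in H2O. ATP5F1B, the catalytic beta subunit of ATP synthase, was the highest nuclear member in both, at 531.8 and 538.2. Tissue isoforms lay at the other end: COX6A2, COX7A1, COX7B2 and COX8C, known mainly from muscle or testis, had no more than 6 counts in any library. In all, 81 nuclear members had enough counts to be tested in batch 1 and 80 in batch 2.

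Some members are less certain than others because counting used no strand. Of the 88 nuclear members, 22 overlap another counted gene on the opposite strand, 20 overlap one on the same strand, and 45 have a pseudogene named after them. NDUFA7, NDUFA13 and NDUFB8 overlap other counted genes on the same strand. So do ATP5MG, ATP5PO and SDHA, which are among the leading nuclear changes in the knockouts below. ATP5ME, another of these, overlaps MYL5 on the opposite strand, and ATP5MG and SDHA have 6 and 3 pseudogenes named after them. How many reads of these genes went uncounted was not measured. UQCRHL is a near copy of UQCRH. MT-ND6 (chrM:14149-14673, minus strand) lies directly after MT-ND5, which ends at chrM:14148 on the plus strand. Without strand, MT-ND6 counts can include RNA of the opposite strand, and how much was not measured.

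At 10 µM CoCl2, few nuclear members were called and all by small amounts. Of 81 tested, 14 were higher and 1 lower than in H2O (edgeR quasi-likelihood test, Benjamini-Hochberg adjusted p under 0.05, here "called"). That share stands beside 22.7% of all 13636 genes, 11.6% called higher and 11.1% lower. No member was both called and changed by 1.2-fold or more, as 4.83% of all genes were, and the median log2 fold change was 0.03 over the members and 0.00 over all genes.

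The largest rise among called members was that of ATP5F1E, the epsilon subunit of the ATP synthase central stalk. It had 130.8 and 133.1 CPM in H2O, 148.1 and 149.1 at 10 µM, and 154.2 and 158.9 at 50 µM. Neither dose overlapped H2O, and the log2 fold changes were 0.17 ± 0.02 (SE, adjusted p = 3.2e-09) and 0.25 ± 0.02 (adjusted p = 8.3e-18). The other 4 leading rises at 10 µM were COX6C (0.15), a small complex IV subunit, and the complex I accessory subunits NDUFC2 (0.13), NDUFA10 (0.13) and NDUFB11 (0.12). UQCRC1, a core protein of complex III, was the member called lower (-0.08). With DESeq2 the count at 10 µM was 6, and without the first 10 µM library, the first H2O library or the second H2O library it was 7, 8 and 9. NDUFC2 and UQCRC1 were among the calls that DESeq2 did not make (adjusted p = 0.124 and 0.26). NDUFC2 was also lost without the second H2O library (adjusted p = 0.0552) or the second 10 µM library (0.207), and UQCRC1 without the first H2O library (0.309) or either 10 µM library (0.131 and 0.162).

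At 50 µM CoCl2, nuclear members were called in both directions, again with small changes. Of 81 tested, 53 were called, 33 higher and 20 lower. The share called is near that of all genes, 61.4% (30.4% higher and 31.1% lower). The median log2 fold change was 0.05 over the members and 0.00 over all genes. The called members changed by a median of 1.09-fold, and 6 were both called and changed by 1.2-fold or more, against 28.2% of all genes. Those 6 were NDUFA4L2, ATP5MGL, NDUFA7, NDUFB11, UQCRHL and NDUFA10, all higher. The next called rise, ATP5F1E, lay just under that size. Most called subunits were higher in complex IV and all were lower in complex II, while complexes I, III and V held both rises and falls.

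**Figure D1:**
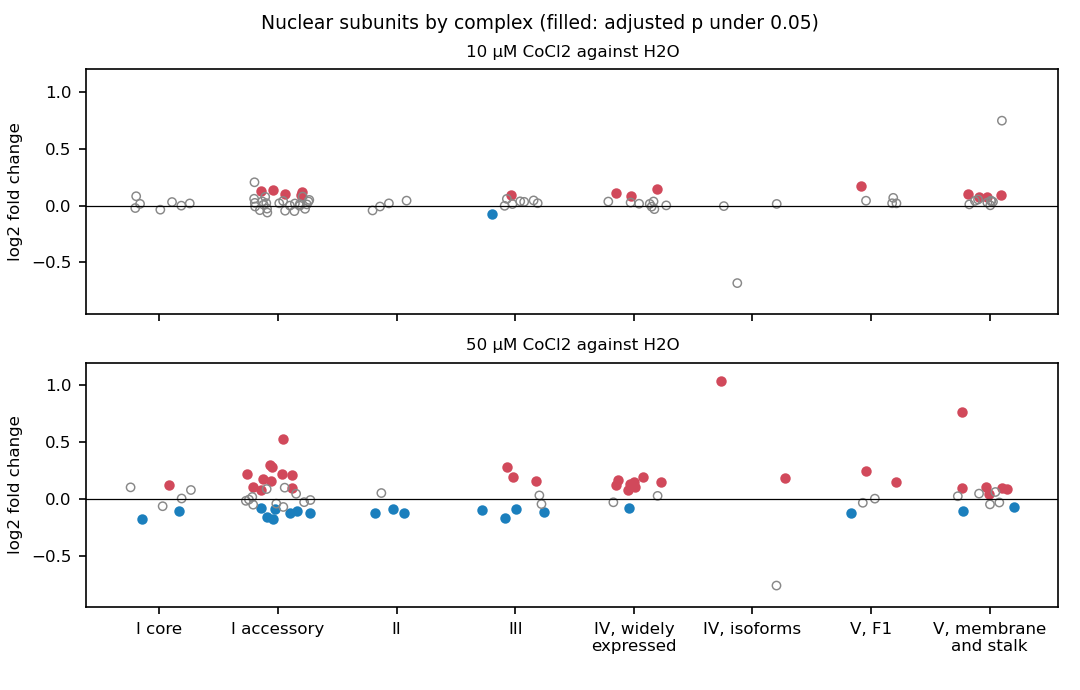
Log2 fold change against H2O (vertical axis) of each tested nuclear subunit at 10 µM (top) and 50 µM CoCl2 (bottom), by complex, with V for ATP synthase. Filled points have an adjusted p under 0.05, red higher and blue lower. At 10 µM 15 of 81 are filled, and at 50 µM 53, with NDUFA4L2 at 1.03 the highest.

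In complex IV most subunits were higher. Of its 11 widely expressed nuclear subunits, 8 were called higher at 50 µM and 1, COX6B1 (-0.07), lower, beside 30.4% and 31.1% of all genes. Their median log2 fold change was 0.13. In 9 of the 11 both 50 µM libraries lay above both H2O libraries, but how often this held over all genes was not measured. COX7B, a small subunit of the complex, had 148.3 and 146.1 CPM in H2O and 164.9 and 165.9 at 50 µM. COX7A2L, which helps join complex III to complex IV in supercomplexes, had 153.5 and 152.0 CPM in H2O and 171.8 and 175.3 at 50 µM. In both genes the 2 groups stood apart, with log2 fold changes of 0.17 ± 0.02 (adjusted p = 3.6e-10) and 0.19 ± 0.02 (adjusted p = 3.4e-12).

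NDUFA4L2 (chr12:57234903-57240715, minus strand) made the largest change of any nuclear member. It had 107.1 and 103.2 CPM in H2O, 106.4 and 103.3 at 10 µM, and 212.2 and 218.4 at 50 µM. The 10 µM libraries lay within the range of H2O (log2 fold change 0.00 ± 0.03) and the 50 µM libraries far above (1.03 ± 0.02, adjusted p = 1.5e-87, a 2.05-fold change). SHMT2, a gene on the opposite strand that overlaps it, had 307.4 and 307.9 CPM in H2O and 321.1 and 329.0 at 50 µM, so the 2 genes did not rise in the same proportion. Its paralogue NDUFA4 (chr7:10931943-10940153, minus strand) had 121.8 and 122.7 CPM in H2O, 122.8 and 126.1 at 10 µM, and 131.8 and 134.9 at 50 µM. NDUFA4 rose by 0.13 ± 0.03 at 50 µM (adjusted p = 7.5e-06) and was not called at 10 µM (0.03). In the 8 batch 2 libraries NDUFA4L2 had 10 to 36 counts, or 0.18 to 0.64 CPM, while NDUFA4 had 180 to 198 CPM; batch and group cannot be told apart in that difference.

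The COX4I pair did not follow the same course. COX4I1, the common form of the subunit, had 263.6 and 263.1 CPM in H2O, 272.3 and 267.4 at 10 µM, and 286.4 and 290.1 at 50 µM. It rose by 0.13 ± 0.02 at 50 µM (adjusted p = 2.0e-09). COX4I2 (chr20:31637912-31645006, plus strand), the form known to be induced in hypoxia, had 27 and 21 counts in H2O, 15 and 13 at 10 µM, and 11 and 13 at 50 µM. All 4 cobalt libraries lay below both H2O libraries, but at these counts neither difference was called (-0.68 ± 0.36 and -0.76 ± 0.37).

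**Figure D2:**
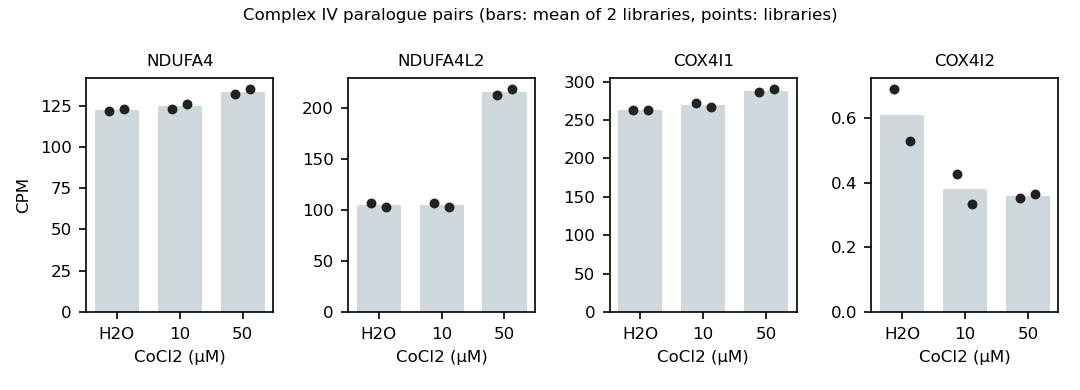
CPM (vertical axes, each from 0 and on its own scale) of 2 pairs of complex IV paralogues in water and in 10 and 50 µM CoCl2. Bars are the means of 2 libraries and points the libraries. NDUFA4L2 stands at 212 and 218 CPM at 50 µM against 107 and 103 in H2O, and COX4I2 stays under 1 CPM.

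Complex II went the other way. SDHA, the flavoprotein that binds succinate, had 36.9 and 36.3 CPM in H2O and 31.8 and 35.4 at 50 µM (-0.12 ± 0.04, adjusted p = 0.017). SDHB, which carries the iron-sulfur clusters, had 82.4 and 81.6 CPM in H2O and 73.6 and 76.8 at 50 µM (-0.12 ± 0.03, adjusted p = 3.0e-04). SDHD, a membrane anchor, had 63.7 and 66.1 CPM in H2O and 61.4 and 60.5 at 50 µM (-0.09 ± 0.03, adjusted p = 0.016). The 50 µM libraries of all 3 genes lay below both H2O libraries, but how often this held over all genes was not measured. Of all genes, 31.1% were called lower at 50 µM. SDHC, the other anchor, had 101.8 and 103.6 CPM in H2O and 105.2 and 107.8 at 50 µM and was not called (0.05). None of the 4 was called at 10 µM (-0.04 for SDHA, -0.01 for SDHB, 0.02 for SDHC and 0.04 for SDHD). The calls of SDHA and SDHD were not made by DESeq2 (adjusted p = 0.142 and 0.124). SDHA also lost its call without the first 50 µM library (adjusted p = 0.45) or the first H2O library (0.0811), and SDHD without the second 50 µM library (0.102) or the second H2O library (0.185).

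Of the 36 nuclear subunits of complex I, 12 were called higher and 9 lower at 50 µM, shares near those of all genes (30.4% and 31.1%). Among the 7 core subunits, which hold the NADH site and the iron-sulfur clusters, NDUFV1, the NADH-binding subunit, rose from 241.8 and 239.1 CPM in H2O to 257.8 and 265.9 (0.12 ± 0.02, adjusted p = 4.1e-08). NDUFS1, the largest core subunit, fell from 245.0 and 238.3 to 224.6 and 223.9 CPM (-0.11 ± 0.02, adjusted p = 2.5e-06). NDUFS8 fell from 65.2 and 63.8 to 54.7 and 59.2 CPM (-0.18 ± 0.03, adjusted p = 4.2e-06). The groups did not overlap in any of the 3 genes, and how often this held over all genes was not measured. NDUFS3 (-0.06), NDUFS7 (0.08) and NDUFV2 (0.10) were not called. None of these core subunits was called at 10 µM.

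Among the 29 accessory subunits, which surround the complex I core, 11 were called higher and 7 lower at 50 µM. Of all genes, 30.4% were called higher and 31.1% lower. NDUFB11, an X-linked membrane subunit, had 77.5 and 77.6 CPM in H2O, 83.5 and 85.1 at 10 µM, and 94.8 and 96.5 at 50 µM. Each dose lay above the one before it, and 50 µM exceeded H2O by 0.30 ± 0.03 (adjusted p = 4.2e-18). NDUFA10 followed the same order, with 123.8 and 120.3, then 135.6 and 132.1, then 145.2 and 150.9 CPM (0.28 ± 0.03 at 50 µM, adjusted p = 2.6e-20). NDUFB10 had the largest called fall of the accessory subunits, from 84.5 and 88.6 CPM to 74.0 and 78.8 (-0.18 ± 0.03, adjusted p = 1.9e-07). NDUFB7 fell by 0.16 on the log2 scale, a call lost without the second H2O library (adjusted p = 0.0512). NDUFA7 stood at 64 and 70 counts in H2O and 76 and 88 at 50 µM in shallower libraries (0.53 ± 0.18), a call lost with DESeq2 (adjusted p = 0.0961) and without the first H2O library (0.0533).

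In complex III 3 of 9 subunits were higher and 4 lower at 50 µM, beside 30.4% and 31.1% of all genes. UQCRFS1, the Rieske iron-sulfur protein, had 60.2 and 61.7 CPM in H2O, 65.0 and 64.8 at 10 µM, and 56.2 and 52.7 at 50 µM. It was called higher at the low dose (0.09 ± 0.03) and lower at the high dose (-0.16 ± 0.04), and between the doses it fell by 0.26 ± 0.04 (adjusted p = 2.1e-10). UQCRH, the hinge protein that contacts cytochrome c1, rose from 192.8 and 188.8 to 224.4 and 213.2 CPM (0.20 ± 0.02, adjusted p = 8.7e-15). UQCRHL rose by 0.28 ± 0.05, and since it is a near copy of UQCRH the 2 values may share reads.

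ATP synthase had 8 subunits higher and 3 lower among the 18 tested at 50 µM, beside 30.4% and 31.1% of all genes. ATP5F1A, the alpha subunit of the catalytic head, fell from 430.6 and 429.0 to 389.4 and 399.0 CPM (-0.12 ± 0.02, adjusted p = 2.4e-10). ATP5F1B, its catalytic partner, had 1206 and 1203 CPM in H2O and 1199 and 1217 at 50 µM and was not called. ATP5MGL, a sparse relative of ATP5MG, had 22 and 16 counts in H2O and 24 and 31 at 50 µM (0.76 ± 0.32), a call lost with DESeq2 (adjusted p = 0.179), without the second H2O library (0.24) and without either 50 µM library (0.0573 and 0.18).

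The 2 doses also differed directly. Between 50 and 10 µM, 22 members were higher and 20 lower of 81, beside 52.8% of all genes (26.2% higher and 26.5% lower), and of the called members only NDUFA4L2 differed by 1.2-fold or more (1.04 ± 0.03), against 19.8% of all genes. The widely expressed complex IV subunits had 6 of 11 higher and 0 lower, and complex II had 2 of 4 lower.

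The genes that serve the complexes were read beside them at 50 µM, where 30.4% of all genes were called higher and 31.1% lower. Assembly factors had 6 higher and 17 lower of 48, mitochondrial ribosomal proteins 13 higher and 27 lower of 77, citric acid cycle enzymes 4 higher and 7 lower of 14, and mitochondrial transcription and RNA handling genes 6 higher and 11 lower of 28. Iron-sulfur cluster assembly genes had 6 higher and 4 lower of 14. Of 7 nuclear regulators of mitochondrial genes, 6 were lower and 0 higher, with a median log2 fold change of -0.22. They included PPARGC1A (-0.29) and PPARGC1B (-0.22), coactivators of mitochondrial biogenesis. TFAM, which packages and transcribes mitochondrial DNA, also fell (-0.16, adjusted p = 6.1e-07), while POLRMT rose (0.18, adjusted p = 2.3e-05). Among 10 HIF targets that act on mitochondria, a list that includes NDUFA4L2 and COX4I2, 7 were higher and 2 lower. PDK1, the kinase that keeps pyruvate out of the citric acid cycle, rose by 0.42, LONP1, the protease that degrades COX4I1, by 0.20, and BNIP3, a mitophagy receptor, by 0.22. BNIP3 and PDK1 had already moved at 10 µM, in opposite directions (-0.08 and 0.15). The separately followed subunits NDUFAB1 (0.24) and ATP5IF1 (0.23) rose at 50 µM, and CYC1 was not called (0.03). Markers of mesenchymal cells moved both ways at 50 µM, 2 higher and 2 lower of the 6 tested, with a summed level of 1546 and 1563 CPM against 1192 and 1197 in H2O, nearly all VIM. FAP was at 0 in all 6 batch 1 libraries. Adrenergic neuroblastoma markers summed to 6291.2 and 6303.9 CPM at 50 µM against 6811.5 and 6764.1 in H2O. Most of that sum was MYCN, at 4499.5 and 4496.7 CPM at 50 µM against 5251.7 and 5230.9 in H2O. Of these markers, TBX2 (0.92), GATA3 (0.31), PHOX2A (0.26), HAND2 (0.21) and TH (0.09) were called higher. MYCN (-0.22) and ISL1 (-0.28) were called lower, and DBH was not called (0.04). The part of either marker set in the subunit differences was not tested.

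Among the members, the largest called differences in batch 2 lay in the mitochondrially encoded genes. All 13 were lower in TET2KO 1 and TET2KO 2 than in WT and all 13 were higher in TET2KO 3. Their share of all counts was 2.596% and 2.649% in WT, 2.052% and 2.03% in TET2KO 1, 1.707% and 1.713% in TET2KO 2, and 3.112% and 3.172% in TET2KO 3. Summed over the 13 genes, the level was 25974 and 26638 CPM in WT. It was 20595 and 20375 in TET2KO 1, 0.779 times the WT mean. It was 16715 and 16803 in TET2KO 2, 0.637 times WT, and 31515 and 32222 in TET2KO 3, 1.21 times WT. The 2 libraries of each group lay close together and no groups overlapped, although 2 libraries against 2 cannot give an exact permutation p below 0.33. TET2KO 3 held both the deepest and the shallowest library of the batch, and both were high. In bulk RNA, fewer transcripts per cell and fewer cells with high levels cannot be told apart.

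**Figure D3:**
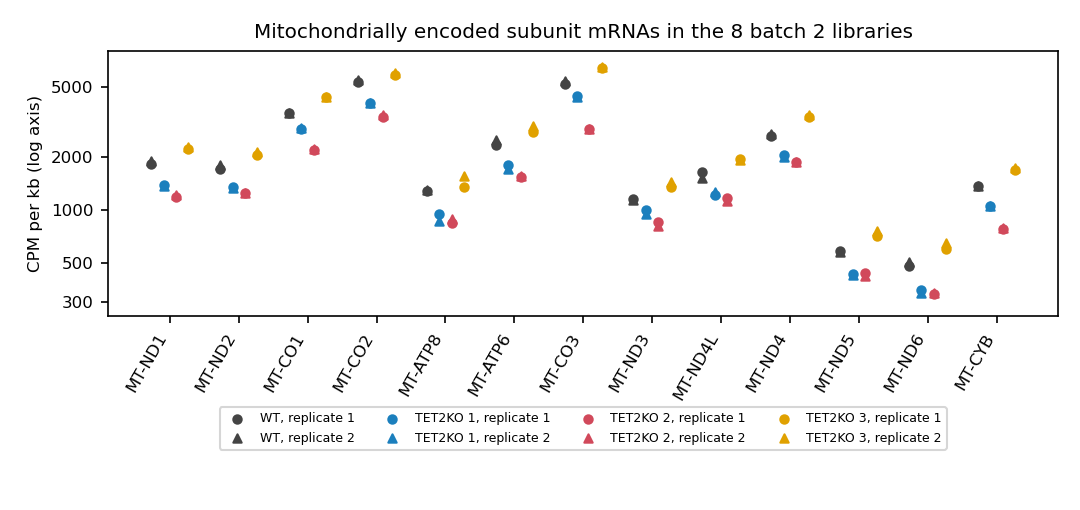
CPM per kilobase (log axis) of the 13 mitochondrially encoded genes, in genome order, in the 8 batch 2 libraries; colours are groups, and circles and triangles are replicates 1 and 2. For each gene the TET2KO 1 and TET2KO 2 points lie below both WT points and the TET2KO 3 points above them.

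The test across all genes called 13 of 13 in each knockout, beside 17.5% of all 14061 genes in TET2KO 1 (9.72% called lower), 26.3% in TET2KO 2 (14.3% lower) and 18.9% in TET2KO 3 (8.9% higher). The median log2 fold change was -0.40 in TET2KO 1 (from -0.52 to -0.24), -0.58 in TET2KO 2 (-0.88 to -0.43) and 0.28 in TET2KO 3 (0.13 to 0.35), beside a median of 0.00 over all genes in each. At 1.2-fold or more, 12, 13 and 9 of the 13 remained called, against 7.79%, 13.4% and 8.5% of all genes. In all 3 comparisons the 2 libraries of the knockout lay wholly on one side of WT for all 13 genes. How often this held over all genes was not measured. Being transcribed together as long RNAs, the 13 genes are not 13 independent observations. These 3 comparisons share the 2 WT libraries.

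MT-CO3 (chrM:9207-9990), a core subunit of complex IV, varied most. It had 4064 and 4251 CPM in WT, 3468 and 3430 in TET2KO 1, 2260 and 2272 in TET2KO 2, and 5034 and 5068 in TET2KO 3. Its log2 fold changes were -0.27 ± 0.03 (adjusted p = 1.2e-18), -0.88 ± 0.03 (adjusted p = 1.9e-84) and 0.28 ± 0.03 (adjusted p = 4.8e-20). MT-CO1, the oxygen-reducing subunit, had 5465 and 5504 CPM in WT, 4465 and 4526 in TET2KO 1, 3404 and 3413 in TET2KO 2, and 6788 and 6761 in TET2KO 3. MT-CO2, which receives electrons from cytochrome c, had 3637 and 3750, then 2788 and 2759, then 2309 and 2360, then 4003 and 4088 CPM. For these 2 genes the log2 fold changes were -0.29 and -0.41 in TET2KO 1, -0.69 and -0.66 in TET2KO 2, and 0.30 and 0.13 in TET2KO 3, where MT-CO2 changed least of the 13.

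MT-CYB (chrM:14747-15887), cytochrome b and the sole mitochondrially encoded part of complex III, had 1556 and 1565 CPM in WT, 1207 and 1197 in TET2KO 1, 891.2 and 900.2 in TET2KO 2, and 1915 and 1968 in TET2KO 3. Its fall in TET2KO 2 (-0.80 ± 0.03, adjusted p = 2.0e-72) stood beside -0.38 ± 0.03 in TET2KO 1. The complex I genes fell more evenly. MT-ND5 (chrM:12337-14148), a proton-pumping subunit, had 1064 and 1044 CPM in WT, 783.5 and 772.0 in TET2KO 1, 794.6 and 769.1 in TET2KO 2, and 1297 and 1377 in TET2KO 3. The TET2KO 1 and TET2KO 2 libraries overlapped for this gene, with falls of 0.44 and 0.43. For MT-ND6, MT-ND5 and MT-ATP8 these 2 knockouts overlapped, and for the other 10 genes TET2KO 2 lay below TET2KO 1.

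In the remaining complex I genes TET2KO 1 and TET2KO 2 again lay below WT and TET2KO 3 above it. MT-ND4, the most abundant of them, had 3648 and 3739 CPM in WT and 4662 and 4765 in TET2KO 3, the largest rise there (0.35 ± 0.03). MT-ND1 fell by 0.45 and 0.63 in TET2KO 1 and TET2KO 2 and rose by 0.27 in TET2KO 3. For MT-ND2 the values were -0.38, -0.49 and 0.26, for MT-ND4L -0.35, -0.47 and 0.29, for MT-ND3 -0.24, -0.47 and 0.27, and for MT-ND6 -0.52, -0.55 and 0.34. MT-ATP6, the proton channel of ATP synthase, had -0.46, -0.64 and 0.26. MT-ATP8 had 280.1 and 324.6 CPM in TET2KO 3 against 266.6 and 268.9 in WT (0.17 ± 0.04, adjusted p = 5.3e-04), the highest adjusted p of any MT- gene. That call was lost with DESeq2 (adjusted p = 0.197), without the first WT library (0.0681) and without the second TET2KO 3 library (0.278).

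The mix of mitochondrial transcripts differed from WT in each knockout, a difference that was not tested. On the log2 scale, shares in TET2KO 2 shifted by -0.22 (MT-CO3) to 0.22 (MT-ND5). The shifts ran from -0.16 (MT-ND6) to 0.12 (MT-ND3) in TET2KO 1 and from -0.15 (MT-CO2) to 0.08 (MT-ND4) in TET2KO 3. MT-CO3 made up 15.65% and 15.96% of the MT- counts in WT, 16.84% and 16.83% in TET2KO 1, 13.52% and 13.52% in TET2KO 2, and 15.97% and 15.73% in TET2KO 3. MT-CYB made up 5.992% and 5.875% in WT and 5.332% and 5.357% in TET2KO 2. MT-ND5 rose in share from 4.096% and 3.919% to 4.754% and 4.577%, and MT-ND2 from 6.834% and 7.038% to 7.757% and 7.802%. In TET2KO 3 the clearest shift was in MT-CO2, from 14% and 14.08% to 12.7% and 12.69%.

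The differences among the 3 knockouts were tested directly, a test in which the WT levels cancel. All 13 MT- genes differed, beside 37.6% of all genes, with largest minus smallest log2 fold changes from 0.74 (MT-ND3) to 1.16 (MT-CO3). Of the 80 nuclear members 29 differed, a count of 19 without the first TET2KO 2 library. The pairwise difference between TET2KO 1 and TET2KO 2 was not tested.

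Among the nuclear subunits, few were called in any knockout. TET2KO 1 had 4 higher and 5 lower of 80 tested (17.5% of all genes called), TET2KO 2 had 1 higher and 8 lower (26.3%), and TET2KO 3 had 12 higher and 0 lower (18.9% in all, 8.9% higher and 9.96% lower). Median log2 fold changes were 0.01, -0.03 and 0.06, beside 0.00 over all genes, and 1, 2 and 1 members were both called and changed by 1.2-fold or more (7.79%, 13.4% and 8.5% of all genes). Single libraries decided these counts. TET2KO 1 had 2 calls (ATP5MG and NDUFS4) without the second WT library, and 2 without its own second library. The NDUFS4 call was itself lost with DESeq2 (adjusted p = 0.0735), without the first WT library (0.27) and without either TET2KO 1 library (0.164 and 0.12). TET2KO 2 had 1 (ATP5F1C) without the second WT library, and 2 and 3 without its own first and second. TET2KO 3 had 5 without the first WT library, ATP5PO no longer among them. Leaving out the second TET2KO 3 library raised its count to 18.

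**Figure D4:**
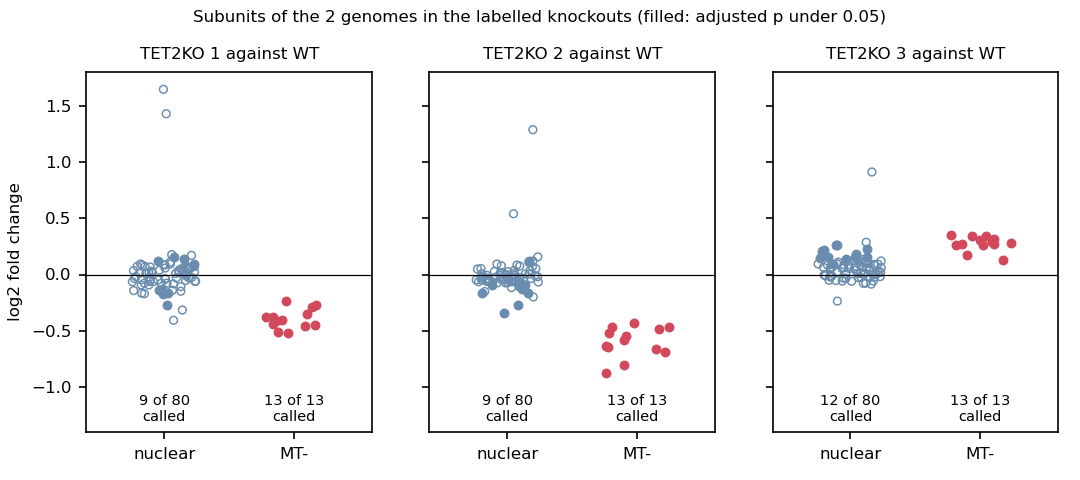
Log2 fold change against WT (vertical axis) of the 80 tested nuclear subunits and the 13 mitochondrially encoded ones in each TET2KO group; filled points have an adjusted p under 0.05. The MT- points lie wholly below 0 in TET2KO 1 and TET2KO 2 and wholly above 0 in TET2KO 3, while the nuclear points centre near 0. The open nuclear points furthest from 0 are genes with few counts.

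NDUFB9, a complex I accessory subunit, was the sole nuclear member called in the same direction in all 3. It had 104.1 and 105.0 CPM in WT, 111.9 and 117.8 in TET2KO 1, 115.4 and 111.2 in TET2KO 2, and 124.9 and 125.8 in TET2KO 3. All 6 knockout libraries lay above WT, by 0.14, 0.12 and 0.26, with adjusted p of 0.016, 0.036 and 2.3e-07. The first 2 of these calls were lost when either WT library was left out (adjusted p from 0.0618 to 0.168) and when the second TET2KO 1 library was (0.27 and 0.0505). The call in TET2KO 2 was also lost without either of its own libraries (0.306 and 0.0577). ATP5MC1, a gene for the membrane ring of ATP synthase, was the sole member called in opposite directions. It had 150.2 and 153.2 CPM in WT, 139.0 and 139.3 in TET2KO 2 (-0.12 ± 0.04) and 179.3 and 153.4 in TET2KO 3 (0.14 ± 0.04), where the lower library lay at the level of WT. The call in TET2KO 2 was lost with DESeq2 (adjusted p = 0.0797), without the second WT library (0.0981) and without either TET2KO 2 library (0.102 and 0.0759).

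In TET2KO 1 the rises were NDUFS7 (0.16), NDUFB9, ATP5MC3 (0.12) and ATP5F1B (0.09), and the falls ATP5MG (-0.27), NDUFS4 (-0.17), ATP5MD (-0.17), UQCRB (-0.14) and NDUFA5 (-0.13). ATP5MG, a subunit of the ATP synthase membrane part, had 29.9 and 28.6 CPM in WT and 24.3 and 24.1 in TET2KO 1. ATP5F1B had 1191 and 1189 CPM in WT and 1261 and 1277 in TET2KO 1. The groups were apart in both genes, and each call was lost when 1 WT library was left out (adjusted p = 0.0677 for ATP5MG without the first and 0.0513 for ATP5F1B without the second). ATP5F1B also lost its call without the second TET2KO 1 library (0.116).

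In TET2KO 2 the leading fall was SDHA (chr5:218241-257082), with 15.6 and 17.2 CPM in WT, 14.8 and 16.1 in TET2KO 1, 12.6 and 13.3 in TET2KO 2, and 15.5 and 16.1 in TET2KO 3. Both TET2KO 2 libraries lay below every other library (-0.34 ± 0.10, adjusted p = 0.0027), and the call was lost without the second WT library (adjusted p = 0.0839) or the first TET2KO 2 library (0.0573). SDHB, SDHC and SDHD were not called in any knockout; the farthest from 0 was SDHD in TET2KO 1 (-0.17 ± 0.07). ATP5ME (-0.27), NDUFA1 (-0.17), ATP5F1C (-0.17) and ATP5MC1 followed. COX4I1 (-0.10) was also called lower. ATP5F1C, the rotating gamma subunit, had 266.8 and 268.9 CPM in WT and 239.6 and 238.2 in TET2KO 2, well apart (adjusted p = 6.1e-05).

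In TET2KO 3, where the MT- genes were higher, the 12 nuclear calls were higher too. They were led by ATP5PO (0.26, adjusted p = 0.0889 without the second TET2KO 3 library), a stalk subunit of ATP synthase, NDUFB9, NDUFS7 (0.23), UQCRFS1 (0.21) and UQCRC1 (0.21). UQCRFS1 had 88.9 and 90.7 CPM in WT and 105.2 and 103.1 in TET2KO 3, while the TET2KO 1 and TET2KO 2 libraries lay between 86.9 and 91.1. UQCRC1 had 108.6 and 113.7 CPM in WT and 132.5 and 124.4 in TET2KO 3. NDUFS7, a core complex I subunit with an iron-sulfur cluster, had 56.1 and 56.1 CPM in WT and 67.3 and 64.0 in TET2KO 3. In these 3 genes the TET2KO 3 libraries stood above WT. Of the other core subunits NDUFS8 was called in TET2KO 3 (0.16, adjusted p = 0.012; 0.212 without the first WT library and 0.195 without the first TET2KO 3 library), and NDUFS1, NDUFS3, NDUFV1 and NDUFV2 were not. NDUFA4 was not called in any knockout (-0.03, -0.04 and 0.02), and NDUFA4L2, at 10 to 36 counts, was not called either (1.43 ± 0.56, 0.54 ± 0.64 and 0.29 ± 0.68). COX4I1 was not called in TET2KO 1 (-0.05) or TET2KO 3 (0.08).

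The balance of the 2 genomes within each complex followed the MT- genes, while the nuclear members summed to 8931 and 9095 CPM in WT and to between 8794 and 9560 CPM in the knockouts. For complex I, the summed CPM per kilobase of mitochondrially encoded over nuclear subunits was 7.48 and 7.33 in WT, 5.81 and 5.63 in TET2KO 1, 5.38 and 5.26 in TET2KO 2, and 8.64 and 9.19 in TET2KO 3. For complex IV it was 17.4 and 17.6 in WT, 13.9 and 13.5 in TET2KO 1, 10.6 and 10.7 in TET2KO 2, and 18.6 and 20.1 in TET2KO 3. No 2 groups overlapped in either complex. Against WT, the ratio in TET2KO 2 was lowest for complex III (0.583 times) and complex IV (0.611 times) and less low for ATP synthase (0.666) and complex I (0.719). In TET2KO 1 it lay between 0.704 and 0.785 times WT for the 4 complexes, and in TET2KO 3 between 1.106 and 1.204 times.

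**Figure D5:**
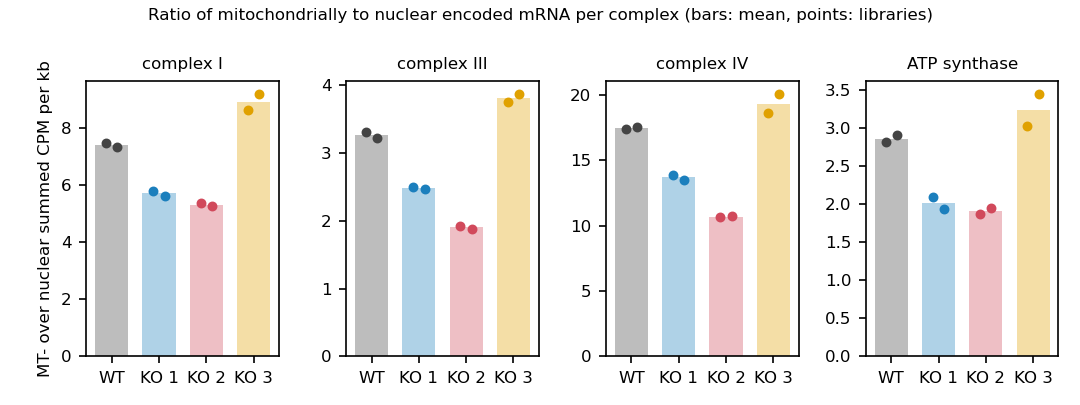
Ratio of the summed CPM per kilobase of mitochondrially encoded to nuclear subunits (vertical axes, each from 0) for 4 complexes in the 8 batch 2 libraries; KO is TET2KO, bars are means of 2 libraries and points the libraries. In each complex TET2KO 1 and TET2KO 2 lie below WT and TET2KO 3 above.

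Genes that copy and handle mitochondrial RNA were read beside these changes; of all genes, 17.5%, 26.3% and 18.9% were called in TET2KO 1, TET2KO 2 and TET2KO 3. Of 28 tested, 1 was higher and 1 lower in TET2KO 1, 0 and 2 in TET2KO 2, and 2 and 1 in TET2KO 3. TFAM had 91.0 and 92.3 CPM in WT and 90.0 to 94.6 in the 6 knockout libraries and was not called, nor was POLRMT (0.10, 0.09 and 0.11). LRPPRC, which stabilises mitochondrial mRNAs, was called in TET2KO 3 alone, at -0.10. PPARGC1B was called lower in all 3 (-0.20, -0.56 and -0.30), with 30.4 and 26.2 CPM in WT and 18.7 and 19.6 in TET2KO 2. PPARGC1A was higher in TET2KO 1 and TET2KO 2 (0.28 and 0.22) and not called in TET2KO 3 (0.16). Mitochondrial ribosomal proteins had 1 higher and 4 lower of 77 in TET2KO 1, 1 and 10 in TET2KO 2, and 6 and 0 in TET2KO 3. Assembly factors had 0 and 4, 2 and 5, and 2 and 0 of 48, and citric acid cycle enzymes 1 and 1, 0 and 1, and 4 and 0 of 14. CYC1, the cytochrome c1 of complex III, was higher in TET2KO 1 (0.14) and TET2KO 3 (0.26) and not called in TET2KO 2 (0.08).

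Cell state markers moved in these libraries as well. Mesenchymal markers summed to 1470 and 1444 CPM in WT, 1028 and 1056 in TET2KO 1, 1090 and 1112 in TET2KO 2, and 939 and 923 in TET2KO 3, and 5 of 7 tested were lower in each knockout (9.72%, 14.3% and 9.96% of all genes). VIM, the most abundant of them, was called higher in TET2KO 1 (0.09, edgeR adjusted p = 0.027) and was not called in TET2KO 2 (0.07) or TET2KO 3 (-0.07). COL1A2 was at or near 0 throughout. The sum, mostly VIM, was below WT in all 3 knockouts. In TET2KO 1, TET2KO 2 and TET2KO 3, COL3A1 changed by -3.38, -2.49 and -3.59 on the log2 scale. FN1 changed by -2.45, -1.23 and -2.53, and POSTN by -2.98, -2.999 and -3.16. PDGFRB (-0.65, -1.63 and -0.48) and COL1A1 (-0.47, -0.65 and -1.105) were the others called lower. PRRX1 was not called. Adrenergic markers, which include MYCN, summed to 6612 and 6723 CPM in WT and 4837 and 4897 in TET2KO 2, and to between 6725 and 6838 in TET2KO 1 and TET2KO 3. MYCN, which made up most of this sum, had 4600 and 4679 CPM in WT and 2815 and 2837 in TET2KO 2 (-0.72). The other adrenergic markers moved both ways in TET2KO 2. TBX2 (1.09), GATA3 (0.42) and ISL1 (0.16) were called higher and TH (-0.30) lower, while PHOX2A, HAND2 and DBH were not called. The part of either marker set in the subunit differences was not tested.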

How the data were processed

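The deposited tables hold raw read counts per gene, 1 table per library, in which the authors counted reads over exons with featureCounts without strand, grouped by gene name over GENCODE 33 protein-coding genes, per the file headers. The version was 1.5.3 for batch 1 and 2.0.5 for batch 2. Trimmomatic 0.36, STAR 2.6.1d and Subread 1.5.3, with GRCh38, are listed in the submitters' processing notes. Library preparation was strand-specific and oligo-dT based, per the labels' protocols.

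Each batch was fitted alone with edgeR 4.0.16 (R 4.3.3, limma 3.58.1): genes kept by filterByExpr, TMM scaling, a dispersion floor of 0.0001001 and the quasi-likelihood test, with Benjamini-Hochberg adjustment over all 13636 or 14061 genes tested and calls at an adjusted p under 0.05. A log2 fold change is given with its SE. CPM are TMM-scaled, and CPM per kilobase use the deposited gene length. Intervals cover counting error and the spread of 2 libraries per group. The fit was also run on simulated data with a larger spread than was estimated here. That run does not check the calls at the spread of these data. Alternatives were DESeq2 1.42.0, other scalings, no filter, a replicate block, both batches in 1 fit, halved batch 2 counts and leaving out each library.

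The members and gene lists were chosen with earlier results of these data known. Genes were named by rule: per comparison, the 5 largest rises and the 5 largest falls among called members, always NDUFA4, NDUFA4L2, COX4I1, COX4I2, the SDH genes, the complex I core and, in batch 2, the MT- genes. COX6B1, COX7A2L, COX7B, UQCRH, and the values of named genes in other comparisons, were added after their values were seen. A member that the rule names is not reported here. Promoters came from RefSeq (GRCh38.p14), where 71 of 88 nuclear members were found by symbol or synonym.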

Additional observations from a re-analysis of the deposited data

Results flagged for a closer look

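Each result here was picked out because the effect of the labelled TET2 knockout differed among TET2KO 1, TET2KO 2 and TET2KO 3 in the direct test of that difference (edgeR quasi-likelihood F test, adjusted over all genes); the value given is the largest minus the smallest of the 3 log2 fold changes. The 3 groups of 2 libraries share the WT libraries, which cancel in this difference.

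Among the mitochondrially encoded genes the span was 1.16 for MT-CO3, 1.12 for MT-CYB, 0.991 for MT-CO1, 0.901 for MT-ATP6, 0.9 for MT-ND1, 0.89 for MT-ND6, 0.874 for MT-ND4, 0.793 for MT-CO2, 0.781 for MT-ND5, 0.756 for MT-ND4L, 0.752 for MT-ATP8, 0.746 for MT-ND2 and 0.743 for MT-ND3. In all 13 the lowest and the highest group lay on opposite sides of WT.

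Among the nuclear members named above the spans were smaller. Those over 0.2 were SDHA (0.291), UQCRC1 (0.274), ATP5ME (0.261), ATP5MC1 (0.26), UQCRFS1 (0.234) and ATP5MC3 (0.22). The others were NDUFS7 (0.191), COX4I1 (0.188), NDUFS3 (0.182), NDUFS8 (0.179), UQCRB (0.178), NDUFA1 (0.166), NDUFB9 (0.145), NDUFA5 (0.144), NDUFV1 (0.141), ATP5F1C (0.138) and NDUFS1 (0.0896).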

How the results depend on the processing

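No called value of a named gene changed direction under any alternative run. With 2 libraries per group, and members differing by about 1.1-fold, the counts of nuclear calls were the least stable results. Requiring 1.2-fold left 0 of the 15 nuclear calls at 10 µM, 6 of 53 at 50 µM, 1 of 42 between the doses, 1 of 9 in TET2KO 1, 2 of 9 in TET2KO 2, 1 of 12 in TET2KO 3 and 2 of 29 among the knockouts. DESeq2 called 6 at 10 µM. Fitting both batches together gave 3 at 10 µM, 33 at 50 µM, 18 in TET2KO 1 and 23 in TET2KO 3, and the cause was not tested. That edgeR fit gained calls of NDUFV1, NDUFS3 and COX4I1 in TET2KO 3 (adjusted p = 0.0141, 0.0123 and 0.0167). It also gained SDHD and NDUFA4L2 in TET2KO 1 (0.041 and 0.0145). NDUFV1 in TET2KO 3 was gained too with DESeq2 size factors in edgeR (0.0489) and with halved counts (0.0485). With plain totals the summed MT- level in TET2KO 2 was 0.6522 times WT in place of 0.6371.

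Leaving out 1 library at a time gave 7 to 16 nuclear calls at 10 µM, 42 to 52 at 50 µM, 34 to 42 between the doses, 2 to 11 in TET2KO 1, 1 to 9 in TET2KO 2, 5 to 18 in TET2KO 3 and 19 to 32 among the knockouts. For the MT- genes it gave 13 in TET2KO 1, in TET2KO 2 and among the knockouts, and 12 to 13 in TET2KO 3. A group left with 1 library was assumed to vary like the others.

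Same-numbered libraries did not deviate together (correlations from -0.0457 to 0.0229). With the replicate number as a block, nuclear calls were 13 at 10 µM, 51 at 50 µM, 42 between the doses, 9, 9 and 12 in the knockouts and 26 among them, and MT- calls 13 in each.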
